A study of Caenorhabditis elegans with 2 samples.

Results

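Cell cycle genes were scored for nearby PAX-3 peaks in starved larvae of Caenorhabditis elegans. They were 10 named genes of the 19973 protein-coding genes on the nuclear chromosomes, taken as a fixed list of replication factors (pcn-1 and cdc-6), cyclins (cyd-1, cye-1 and cyb-1), cyclin-dependent kinases or CDKs (cdk-4 and cdk-2), CDK inhibitors (cki-1 and cki-2) and the phosphatase gene cdc-25.1. All 10 were found in the annotation. The data came from chromatin immunoprecipitation followed by sequencing (ChIP-seq), with an anti-GFP antibody, of PAX-3, a paired box transcription factor. The larvae were of strain OP190, which has the genotype unc-119(ed3) III; wgIs190 and expresses PAX-3 with a C-terminal GFP-FLAG tag. They were whole animals of both sexes in the first larval stage (L1), 6 h old and starved after bleaching. The 2 biological replicates form 1 group, and no other condition or untagged strain was analysed here. Whole larvae were used, so the lists do not show in which cells a site was bound, and the labels do not name the promoter or copy number of the transgene.

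The cell cycle is driven by CDKs bound to cyclins. Cyclin D with CDK-4 and cyclin E with CDK-2 act in G1 and at the entry into S phase, and cyclin B acts in mitosis. CKI proteins hold the kinases back, and CDC25 phosphatases release them by removing inhibitory phosphates. CDC-6 helps to load the replicative helicase at origins before S phase, and PCNA clamps DNA polymerase to its template during it. L1 larvae that hatch without food stop development, and their blast cells do not divide until they are fed. In C. elegans, cki-1 is known to be needed for this arrest.

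Of the 10 genes, 2 had a promoter peak in the authors' short list, which keeps peaks by irreproducible discovery rate (IDR), against 6.99% of all protein-coding genes. Both were replication genes, pcn-1 and cdc-6, while none of the 3 cyclin, 2 CDK and 2 CDK inhibitor genes had one, nor did cdc-25.1. A peak was given to a promoter if its summit, its point of highest signal, fell at most 1000 bp before or 200 bp after the gene start. In the pooled list of 30000 peaks, which reaches far below the end of the IDR list, 8 of the 10 genes had a promoter summit, against 36.7% of all genes. The replicate 1 list gave 8 of 10, against 36.7%, and the replicate 2 list 9 of 10, against 37.5%. These are descriptions with no test, since the genes were chosen by name with earlier results of these data known and there is 1 group.

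**Figure D1:**
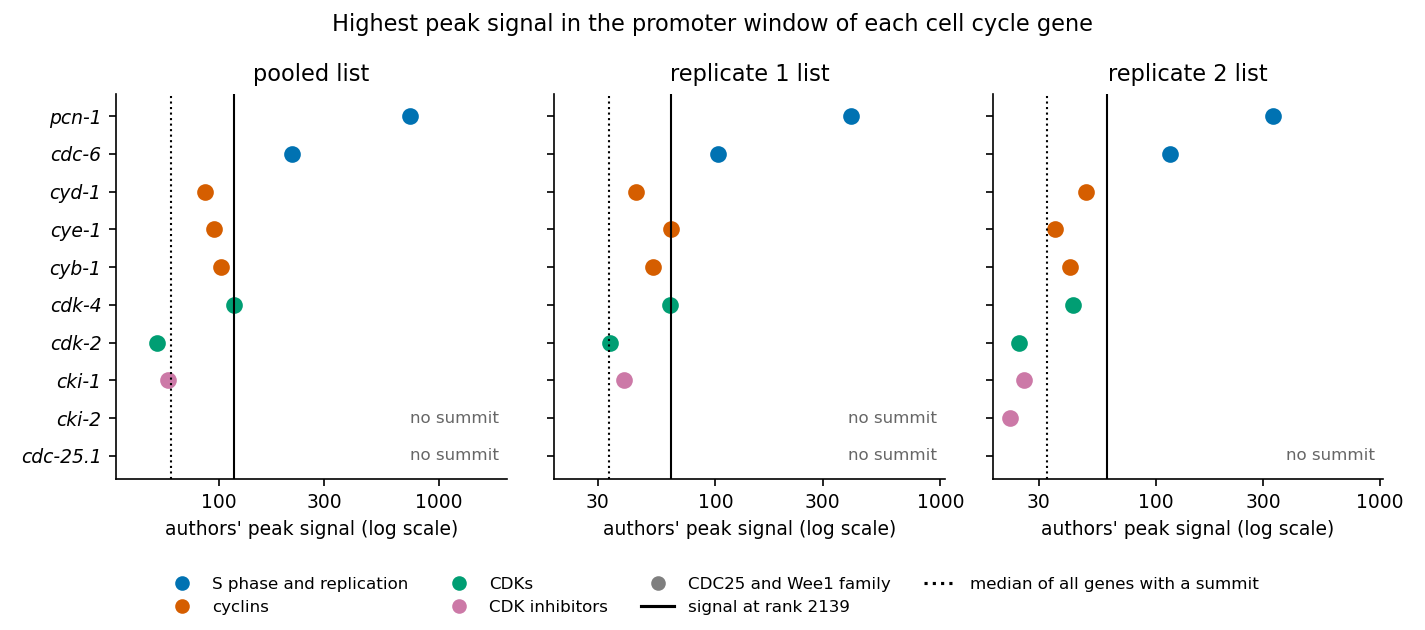
Highest peak signal (log scale) in the promoter window of each of the 10 genes, in the pooled list and in the list of each replicate, with points coloured by role. The solid line is the signal at rank 2139, where the IDR list ends in the pooled data, and the dotted line the median of all genes with a promoter summit. In all 3 panels pcn-1 and cdc-6 are right of the solid line, and no other gene is. Just left of it are cdk-4 in the pooled list, and cye-1 and cdk-4 in replicate 1.

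The gene pcn-1 encodes PCNA, the sliding clamp of DNA polymerase (WBGene00003955, chromosome IV 4047937 to 4049448, minus strand). Its promoter peak had a signal of 738 in the pooled and IDR lists, where it ranked 68 of 2139. The signal was 402 (rank 62 of 30000) in replicate 1 and 334 (rank 81) in replicate 2. Signal is the value that the authors gave each peak, and it is compared within a list only. Only 74 of the 19973 genes had a higher promoter signal in the pooled list, so pcn-1 stood above 99.6% of them. In such shares of all genes, those without a promoter summit count as lower. The summit lay 273 bp upstream of the start in the pooled list, 256 bp upstream in replicate 1 and 269 bp in replicate 2. The peak spanned 4049598 to 4049814, and no other protein-coding gene had its promoter window there. The upstream neighbour, the hedgehog-related gene wrt-5, runs in the same direction and ends 557 bp before the pcn-1 start. A weaker summit at 479 bp upstream had a pooled signal of 65.2.

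The bases under the strongest promoter summits are given for 5 genes that span the range of signals, from pcn-1 as the highest to cki-1, lower than all but cdk-2 among the 8 with a pooled summit. Each is 201 bases in build ce11 from the RefSeq copy of the assembly, on the strand of the gene, 5′ to 3′, with the summit at the middle base. Capitals mark matches to the motifs described next, and a match on the other strand is printed as it reads on the strand of the gene.
pcn-1 (chrIV:4049621-4049821, minus strand): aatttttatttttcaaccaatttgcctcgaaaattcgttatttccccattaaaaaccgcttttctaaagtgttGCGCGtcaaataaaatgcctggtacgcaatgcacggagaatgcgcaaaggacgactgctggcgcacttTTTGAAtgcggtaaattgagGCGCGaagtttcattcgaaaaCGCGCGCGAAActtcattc
cdk-4 (chrX:13519227-13519427, minus strand): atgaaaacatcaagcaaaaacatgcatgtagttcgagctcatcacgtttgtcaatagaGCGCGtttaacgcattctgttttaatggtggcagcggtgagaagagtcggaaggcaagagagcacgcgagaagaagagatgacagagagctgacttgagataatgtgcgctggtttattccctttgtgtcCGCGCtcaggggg
cyb-1 (chrIV:10734637-10734837, plus strand): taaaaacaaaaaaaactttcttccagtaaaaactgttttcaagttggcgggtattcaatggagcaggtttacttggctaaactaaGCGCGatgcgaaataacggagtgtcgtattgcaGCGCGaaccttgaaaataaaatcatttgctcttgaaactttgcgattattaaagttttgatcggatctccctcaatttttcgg
cyd-1 (chrII:12980346-12980546, plus strand): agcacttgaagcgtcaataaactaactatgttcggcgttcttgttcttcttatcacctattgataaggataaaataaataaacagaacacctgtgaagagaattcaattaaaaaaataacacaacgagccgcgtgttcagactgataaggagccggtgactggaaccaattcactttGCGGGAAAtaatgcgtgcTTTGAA
cki-1 (chrII:7810889-7811089, plus strand): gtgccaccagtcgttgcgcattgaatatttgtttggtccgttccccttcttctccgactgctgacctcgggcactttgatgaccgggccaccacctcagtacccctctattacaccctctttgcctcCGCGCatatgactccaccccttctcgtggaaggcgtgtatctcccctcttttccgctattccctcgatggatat

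Motifs were searched on both strands of these windows, and the share of all windows of that length is given beside each. Of the 8 windows on members' promoter summits, 2 are on IDR summits and 6 on weaker pooled summits, so both shares are given. The paired domain core GTCACG was in 0 of 8, against 8.56% of IDR windows and 4.70% of pooled windows. The homeodomain motif TAATTA was also in 0 of 8, against 7.90% of IDR and 7.44% of pooled windows. The E2F-type motif TTCCCGC was in 1 of 8 (cyd-1), against 3.27% and 2.43%. TTTGAA, the core of the CHR element of cell cycle promoters, was in 3 of 8 (cdc-6, pcn-1 and cyd-1), which is 37.5%, against 33.8% of IDR and 39.5% of pooled windows. A pair of searches was added after the windows had been seen. At least 1 of the E2F forms TTTCGCGC, TTTGGCGC, TTTCCCGC and TTTGCCGC was in 2 of 8 windows (pcn-1 and cyd-1), against 5.80% of IDR and 3.72% of pooled windows. TTTCCCGC contains TTCCCGC, so both count the same site of cyd-1. The short run GCGCG was in 5 of 8 windows (pcn-1, cdk-2, cdk-4, cyb-1 and cki-1), against 29.9% of IDR and 10.8% of pooled windows. It overlaps the E2F form TTTCGCGC. The 5 windows with GCGCG held from 32.8% (cdk-2) to 54.7% (cki-1) G and C, against medians of 41.3% in IDR and 38.8% in pooled windows. The 300 bases around the gene starts (250 before and 50 after) were searched too. There GTCACG was in 1 of 10 promoters (cyb-1), against 6.29% of all genes, TAATTA in 3 of 10, against 15.5%, and TTCCCGC in 2 of 10 (cyd-1 and cdk-2), against 3.22%. TTTGAA was in 9 of 10, against 62.5%. The added E2F forms, chosen after seeing the windows, were in 4 of 10 (pcn-1, cyd-1, cdk-2 and cki-2), against 4.69%. GCGCG, added likewise, was in 4 of 10 (pcn-1, cdk-2, cki-1 and cki-2), against 14.1%. Some of these promoters overlap the windows that had been seen, and cki-2 had no pooled promoter summit. A match describes the letters only, and binding at it was not tested.

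The gene cdc-6 encodes the origin licensing factor (WBGene00000382, chromosome I 4268070 to 4270287, minus strand). Its promoter peak had a signal of 216 in the pooled and IDR lists (rank 767), 103 in replicate 1 (rank 941) and 115 in replicate 2 (rank 673). The pooled signal was above that of 96.6% of all genes, and that of pcn-1 was 3.42 times as high. The summit lay 292 bp upstream of the cdc-6 start and 87 bp upstream of the start of acin-1, which runs the other way from a start 378 bp off. The peak is thus shared by the windows of both genes, and which of them it serves was not tested. It was the only pooled summit from 10 kb upstream to the end of cdc-6. Its 201 bp window held 29.9% G and C, the lowest of the 8, against a median of 41.3% in IDR windows.

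The cyclin genes had promoter summits with signals below 117, the lowest on the IDR list. The B-type cyclin gene cyb-1 (WBGene00000865, chromosome IV 10735216 to 10737177, plus strand) had a signal of 102 in the pooled list (rank 2767), 52.6 in replicate 1 and 41.6 in replicate 2. Its summit, 479 bp upstream, was 149 bp upstream of orc-5, a divergent gene for a subunit of the origin recognition complex. The cyclin E gene cye-1 (WBGene00000871, chromosome I 6780799 to 6784397, plus strand) had 95.3 in the pooled list (rank 3174), 63.6 in replicate 1 (rank 2147) and 35.5 in replicate 2 (rank 8353), 634 bp upstream in the pooled list. That summit lay 14 bp upstream of the divergent gene pqn-21. The cyclin D gene cyd-1 (WBGene00000870, chromosome II 12980591 to 12993117, plus strand) had 86.0 in the pooled list (rank 3963), 44.2 in replicate 1 and 48.8 in replicate 2. The pooled summit lay 145 bp upstream, in a window of no other protein-coding gene, and that of replicate 2 at 81 bp. The highest of replicate 1 lay elsewhere, 278 bp upstream, and the one nearest the pooled summit had 28.4 (rank 18060). A further summit lay 2100 bp upstream, with 86.9 in the pooled list, 23.3 in replicate 1 and 54.1 in replicate 2. Inside this long gene the pooled list held 5 more summits, of at most 71.1. The pooled signals of the 3 genes were above those of 89.6 to 91.7% of all genes, counting genes without a promoter summit as lower. Against genes with a promoter summit only, cyb-1 and cye-1 were above the third quartile of 94.0 and cyd-1 was below it. The order among the cyclins did not hold between replicates, since cye-1 was highest of the 3 in replicate 1 and lowest in replicate 2.

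One cyclin gene had an IDR peak outside the promoter window. It lay inside cye-1, 1050 bp downstream of the start, with a signal of 252 in the IDR list (rank 604), 112 in replicate 1 (rank 823) and 134 in replicate 2 (rank 521). The summit was in intron 2, which spans 6781132 to 6781990 in both annotated transcripts. It was also inside a tRNA gene on the same strand (WBGene00022955, chromosome I 6781803 to 6781874), 46 bp from its start. Of the 612 nuclear tRNA genes, 72 (11.8%) had an IDR summit inside them or within 100 bp. The intron peak had 2.64 times the pooled signal of the cye-1 promoter summit.

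**Figure D2:**
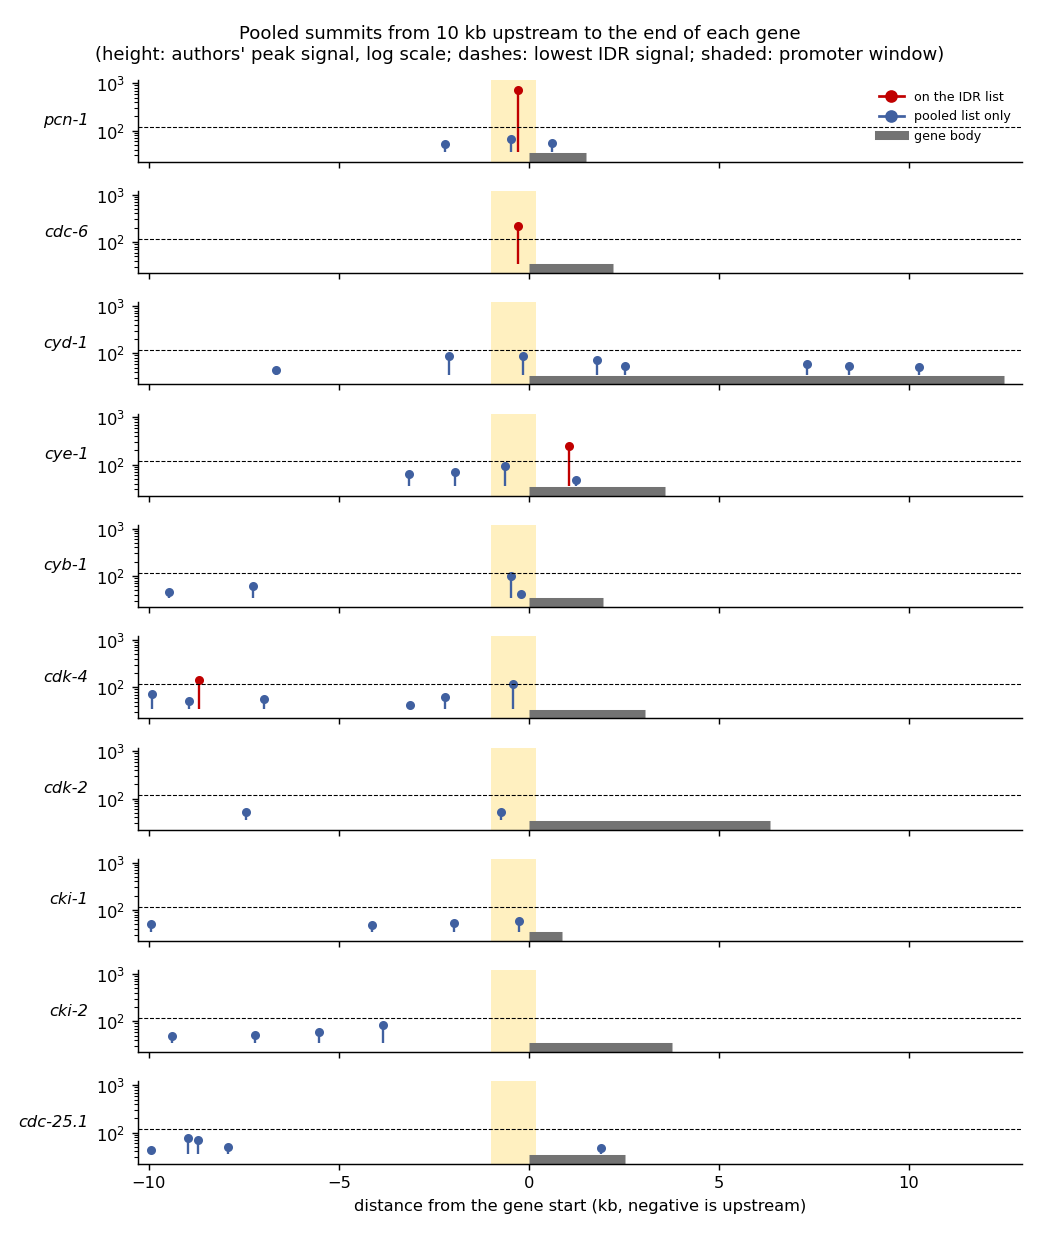
Pooled summits from 10 kb upstream to the end of each gene, by distance from the gene start (kb) and authors' signal (log scale), with summits on the IDR list in red, the promoter window shaded and the gene body in grey. Red summits stand in the windows of pcn-1 and cdc-6, inside cye-1 and 8691 bp upstream of cdk-4.

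The 2 CDK genes differed in their promoter signals. For cdk-4, the partner of cyclin D (WBGene00000406, chromosome X 13515856 to 13518911, minus strand), the signal was 116.7 in the pooled list, 63.0 in replicate 1 and 42.8 in replicate 2. Its pooled rank of 2147 was 8 places below the end of the IDR list, whose lowest signal was 116.9. The ranks were 2193 in replicate 1 and 4751 in replicate 2, so the summit was weaker within the second list. It lay 416 bp upstream of cdk-4 and 336 bp upstream of the divergent gene F18H3.1. For cdk-2, the partner of cyclin E (WBGene00019362, chromosome I 3410013 to 3416368, plus strand), the signal was 52.4 in the pooled list (rank 15930). It was 33.9 in replicate 1 and 24.6 in replicate 2, but at different places, 150 bp downstream of the start in replicate 1 and 775 bp upstream in replicate 2. The replicate 1 summit nearest the pooled one, which lay 728 bp upstream, had 25.7. The pooled cdk-2 signal was below 60.2, the median of all genes with a promoter summit. Counting genes without a summit as lower, cdk-4 was above 93.0% of all genes and cdk-2 above 76.4%.

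The CDK inhibitor genes lie side by side on chromosome II, with 4393 bp between them. The gene cki-1, of the p27 family (WBGene00000516, 7811240 to 7812105, plus strand), had a promoter signal of 58.5 in the pooled list (rank 11638), 39.1 in replicate 1 and 25.7 in replicate 2. The summits lay 251, 254 and 411 bp upstream, so that of replicate 2 was 160 bp from the pooled one. Its neighbour cki-2 (WBGene00000517, 7816499 to 7820281, plus strand) had no promoter summit in the pooled or replicate 1 list and 1 of signal 22.4 (rank 28845) in replicate 2. The pooled signal of cki-1 was above that of 80.7% of all genes, counting those without a summit as lower. Against all genes with a promoter summit, cki-1 was just below the median of 60.2 in the pooled list and above that of 33.8 in replicate 1. In replicate 2 it was below the first quartile of 26.2, and cki-2 was near the bottom of that list. The gene cdc-25.1, which is needed for germline proliferation (WBGene00000386, chromosome I 6469386 to 6471922, minus strand), had no promoter summit in any of the 4 lists. A list of the 30000 highest peaks cannot show that nothing is bound there.

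Within 10 kb upstream, 3 of the 10 genes had an IDR summit (pcn-1, cdc-6 and cdk-4), against 21.0% of all genes. For cdk-4 the summit was 8691 bp upstream, with a signal of 143 in the IDR list, 75.5 in replicate 1 and 57.2 in replicate 2. It lay 187 bp upstream of pab-2, a poly(A)-binding protein gene, with pab-2 and F18H3.1 between it and cdk-4. All 10 genes had a summit in 10 kb in each relaxed list, against 91.8% of genes in the pooled list, 92.2% in replicate 1 and 93.1% in replicate 2. At this distance the counts were close to those of all genes. For cki-1, a replicate 2 summit 1965 bp upstream had a signal of 57.0 (rank 2401), and the pooled list had 52.2 at 1956 bp. Replicate 1 listed no summit there. For cki-2, the highest pooled summit in 10 kb had a signal of 81.9 and lay 50 bp inside T05A6.17, a noncoding RNA gene. The windows of the pair overlap, and 3 of the 4 pooled summits upstream of cki-2 were also upstream of cki-1. For cdc-25.1, the highest was 77.1 in the pooled list, 8964 bp upstream, with 29.0 in replicate 1 and 55.7 in replicate 2. That summit lay inside the gene nmtn-1 and 1554 bp upstream of sulp-1, with uad-2 between it and cdc-25.1.

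The replicates were set against each other at the 8 genes with a pooled promoter summit. In 7 of them both replicate lists held a summit within 100 bp of it, the exception being cki-1 in replicate 2. The pooled list was made from these same replicates, and the share of matched summits over all genes was not computed. The count of 7 therefore does not measure how reproducible these sites are. Some matches were weak, such as those of cdk-2 at rank 22942 in replicate 1 and 23500 in replicate 2. At pcn-1 and cdc-6 the replicate summits lay at most 25 bp from the pooled one. Across the wider list of cell cycle genes described next, 49 of 110 had a promoter summit in both replicates. The share of all genes with a summit in both was not computed. Taken singly, the lists gave 36.7% of all genes in replicate 1 and 37.5% in replicate 2.

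**Figure D3:**
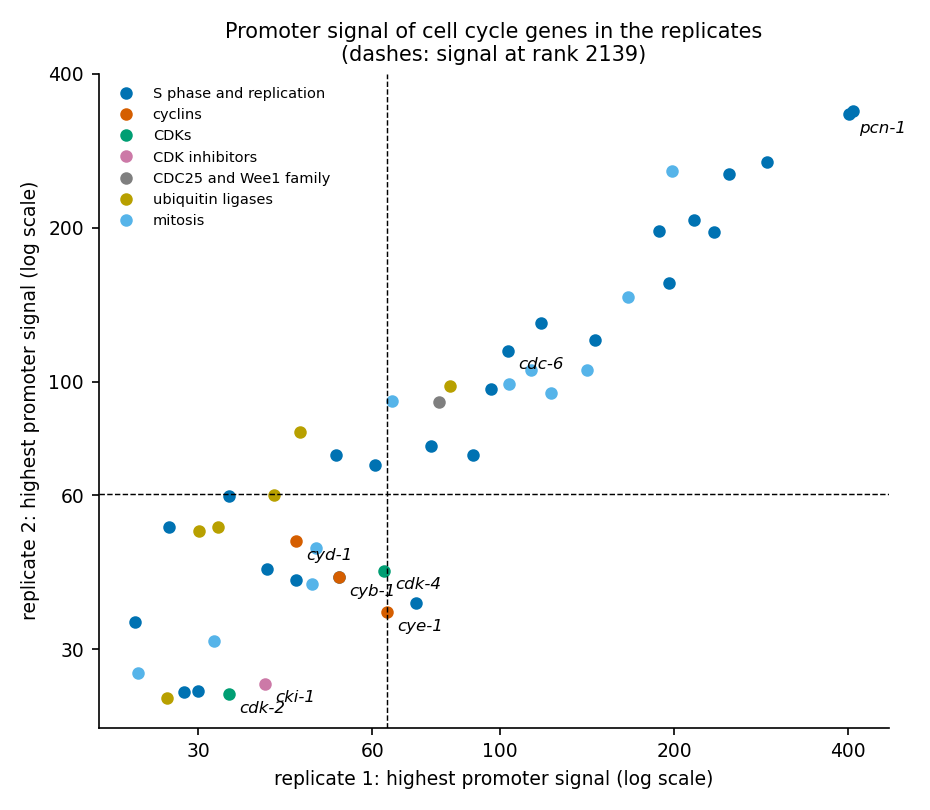
Highest promoter signal in replicate 1 and in replicate 2 (both log scales) for the 49 cell cycle genes with a promoter summit in both, coloured by role, with dashed lines at the signal of rank 2139. Of these, 23 genes lie beyond both lines, pcn-1 and cdc-6 among them, and the cyclin, CDK and inhibitor genes lie below both. In replicate 1, cye-1 (63.6) and cdk-4 (63.0) were only just below the line at 63.8.

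Whether the difference between replication genes and cyclin, CDK and inhibitor genes went beyond the 10 was examined in 110 cell cycle genes grouped by role, the 10 among them. In all, 24 of the 110 (21.8%, 95% Wilson interval 15.1 to 30.4) had an IDR promoter summit, against the 6.99% of all genes. Of 47 genes for S phase and replication, 15 (31.9%, interval 20.4 to 46.2) had an IDR promoter summit. Without pcn-1 and cdc-6, which raised the question, it was 13 of 45 (28.9%, interval 17.7 to 43.4). Of 13 cyclin, CDK and CDK inhibitor genes none had one, which allows a share of up to 23.1%, so a share like the 6.99% of all genes could not be told from 0 with so few genes. Of these 13 genes 7 are among the 10. The other 6 alone gave 0 of 6, which allows up to 50% by the same rule (Wilson upper limit 39.0%). Mitosis genes had 7 of 23 (30.4%, 15.6 to 50.9), ubiquitin ligase genes of the cell cycle 1 of 20 and the CDC25 and Wee1 family 1 of 7. In the pooled list the counts were 30 of 47 for replication, 17 of 23 for mitosis and 7 of 13 for cyclins, CDKs and inhibitors. The last count was carried by the 10 genes, with 6 of 7, while the 6 others had 1 (16.7%), below the 36.7% of all genes. Without pcn-1 and cdc-6, replication genes had 28 of 45 (62.2%). The pooled summit shared by cyb-1 and orc-5 counts in both the cyclin and the replication group. The intervals cover counting error only and treat the genes as independent, though the lists of roles were chosen with earlier results of these data known. Neither the difference between roles nor that from all genes was tested.

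**Figure D4:**
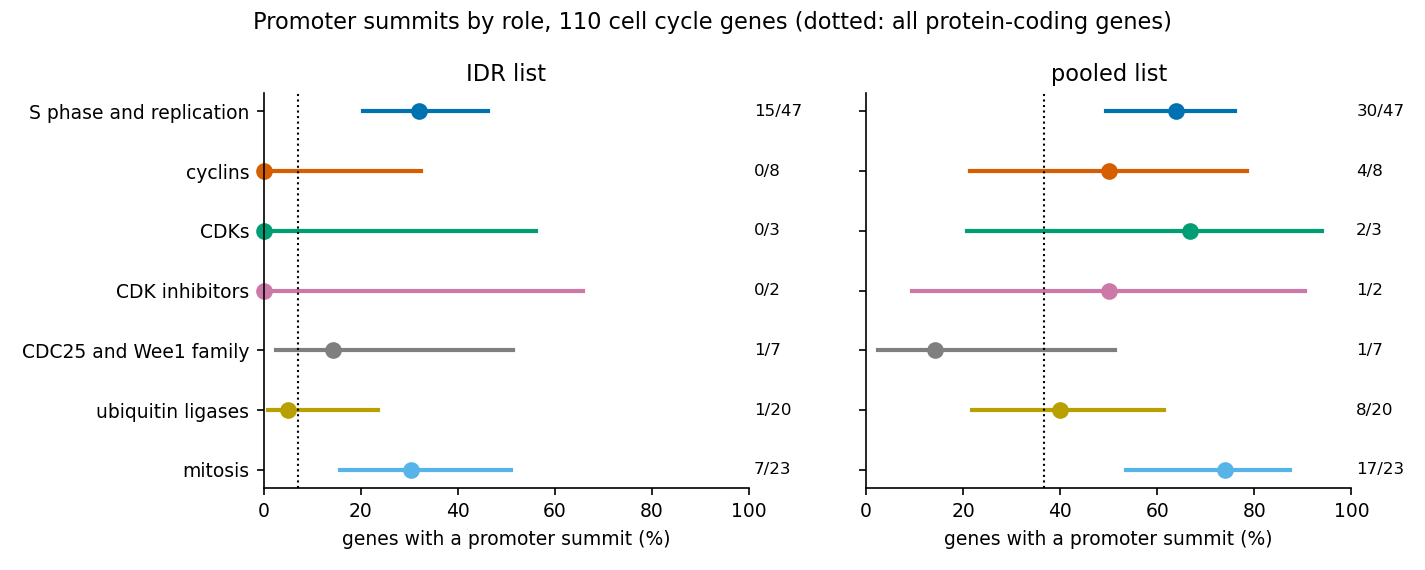
Share of genes with a promoter summit by role among 110 cell cycle genes, in the IDR list and in the pooled list, with 95% Wilson intervals and counts at the right. The dotted lines are all protein-coding genes, at 6.99% and 36.7%. Replication and mitosis lie right of both lines, and the cyclin, CDK and inhibitor genes are at 0 in the IDR list. In the pooled list the cyclin, CDK and inhibitor genes lie right of the line too, with intervals that cross it.

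Besides pcn-1 and cdc-6, the replication genes with an IDR promoter summit came from several steps of replication. At the helicase they were mcm-10 (signal 751 in the IDR list, 409 in replicate 1 and 338 in replicate 2), mcm-4, a subunit of the MCM helicase (199), and psf-2 (235) and psf-1 (149) of the GINS complex. The origin firing gene sld-2 (129) and the licensing inhibitor gene gmn-1, which encodes geminin (167), were nearer the end of the IDR list. Genes for synthesis were rfc-4, of the clamp loader that places PCNA (569), ctf-4, of the fork (491), the primase gene pri-2 (383), rpa-2, of the single-strand binding complex (371), and pole-1, of DNA polymerase epsilon (265). The fork gene tim-1 (435) and the topoisomerase II gene top-2 (423) completed the 15. Only mcm-10 had a higher signal than pcn-1, but replicate 1 had no summit within 100 bp of the mcm-10 IDR summit.

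Among mitosis genes the peaks lay at smc-3, a cohesin subunit (458), ify-1, the securin (316), mdf-2, the spindle checkpoint gene for MAD2 (245), bub-1 (221), spd-1, for a midzone microtubule bundler (220), bir-1, of the chromosomal passenger complex (203), and the checkpoint gene san-1 (154). The other 2 genes were gfi-3, for a subunit of the anaphase-promoting complex (175), and wee-1.3, for a kinase that inhibits CDK-1 (165). All 24 genes had a promoter summit in both replicates, at ranks up to 2366 in replicate 1 and 1657 in replicate 2. The same share over all genes with an IDR promoter summit was not computed.

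Many of these peaks are shared with a neighbouring gene. The IDR summit lay in another protein-coding gene's promoter window for 16 of the 24 genes, against 716 of 1397 (51.3%) of all genes with an IDR promoter summit. At the 3 highest such signals the partners were eef-1A.1 at rfc-4, eef-1G at ctf-4, and gly-9 and mib-1 at smc-3. The genes with a window of their own were mcm-10, pcn-1, rpa-2, pole-1, bir-1, mcm-4, gfi-3 and wee-1.3. With each IDR promoter peak given to the nearest gene start alone, 9 of 47 replication genes kept one, and cdc-6 was among those that did not. Of the members, pcn-1 was therefore the one whose IDR promoter peak was both in its own window and nearest to its own start. The share of all genes was not computed under the nearest-start rule, so the 9 of 47 cannot be set beside the 6.99%.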

How the data were processed

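The members and the lists of roles were chosen with earlier results of these data known. The deposited narrowPeak lists use build ce11, per the notes of the authors, and comprise 1 IDR-thresholded list, 1 pooled list and 1 for each replicate. No source used here gives the caller, aligner or IDR threshold. The value used is the peak signal (column 7) as deposited by the authors, whose scaling is not stated. The IDR list equals the 2139 highest pooled peaks. Without read counts in the lists, depth is unknown.

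Gene starts were taken from Ensembl release 115 (WBcel235, the same assembly as ce11). Sequence was read from RefSeq's copy. Positions count from 1. Of 114 names on the role lists, 4 were not found (sld-3, rfc-5, pold-1 and pold-2). Summits in each window were counted in Python 3.11.15 (pandas 2.3.3, numpy 2.4.6). Wilson intervals came from scipy 1.17.1 and figures from matplotlib 3.10.9. A count of 0 allows 3 counts of the total. The window code was tested on simulated summits. No test was run. Named were all 10 members, every wider cell cycle gene with an IDR promoter summit, and the genes that share or neighbour a member's IDR summit. Neighbours of other summits were named after their values were seen. Alternatives changed the window, the peaks, the assignment to genes and the replicates used.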

Additional observations from a re-analysis of the deposited data

How the results depend on the processing

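For the 2 members with an IDR promoter summit the count stayed at 2 under all 9 alternatives planned, but with the nearest start alone, at any distance, they were pcn-1 and cye-1, by its intron peak, and not cdc-6. With the nearest start alone and the promoter window kept, chosen after seeing the data, it was 1 (pcn-1). It was 2 without replicate 1 and 2 without replicate 2, where the 2139 highest peaks of the other replicate were used. Taking the 2500 or 3000 highest pooled peaks, chosen after seeing the data, gave 3 (with cdk-4) and 4 (with cyb-1 too). For 10 kb upstream the count of 3 became 1 with the nearest start alone, and was 2 to 3 with a replicate left out. The 15 replication genes became 9 with the nearest start alone, with or without the promoter window, and were 15 to 16 with a replicate left out. With only IDR peaks matched in both replicates they were 13, without mcm-10 and sld-2. The wider count of 24 ranged from 16 to 30. Shares of all genes were not computed for the alternatives, so the 6.99% applies to the main setting only. The 0 of 13 cyclin, CDK and inhibitor genes stayed at 0 with the nearest start in the promoter window. It became 1 with the nearest start at any distance (the cye-1 intron peak, outside that window), 1 with the 2500 highest pooled peaks (cdk-4) and 2 with the 3000 highest (cyb-1 and cdk-4). Of the 8 promoter summits, 4 were matched in both replicates at 50 bp and 8 at 200 bp, against 7 at 100 bp. No paired analysis was possible because both replicates are of 1 group. The unknown depth limits any statement on genes without a summit.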
